A study of Mus musculus with 9 samples.

Results

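The genes described are the classical heat shock chaperones of the mouse with their main transcription factor, a list of 10 symbols: Hspa1a, Hspa1b, Hspa8, Hspa5, Hsph1, Dnajb1, Hsp90aa1, Hsp90ab1, Hspb1 and Hsf1. They are picked out by gene symbol from 35896 genes with transcripts in the quantification tables. All 10 passed the filter on low counts that left 14648 genes for testing. The libraries come from E14, a mouse embryonic stem cell line grown on gelatin in serum-containing medium, and all cultures carry the label 72 h. Self-renewing controls (+LIF2i, 3 libraries) were kept in LIF2i, which is the cytokine LIF with the MEK inhibitor PD0325901 at 1 µM and the glycogen synthase kinase-3β inhibitor CHIR99021 at 1 µM. Withdrawn controls (-LIF2i, 3 libraries) spent 72 h without LIF2i. The third group (CK666 -LIF2i, 3 libraries) was withdrawn in the same way with 80 µM CK666, which blocks branched actin assembly by the Arp2/3 complex. The stock solution was in DMSO; since no label states that controls were given DMSO, drug and solvent cannot be told apart. The series asks what Arp2/3 activity contributes when embryonic stem cells leave self-renewal, and its design calls the 3 numbered biological replicates paired across the groups. All libraries are of 1 cell line.

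Chaperones of the HSP70 family bind exposed hydrophobic stretches of proteins in cycles of ATP hydrolysis. J-domain proteins such as Dnajb1 deliver clients and start hydrolysis, and HSP110 proteins such as Hsph1 exchange the nucleotide so that the client is released. HSP90 takes over partly folded clients, among them kinases and receptors, small heat shock proteins such as Hspb1 hold unfolded proteins and bind actin, and Hspa5 works in the endoplasmic reticulum (ER). Under stress the transcription factor Hsf1 binds heat shock elements, inverted repeats of GAA, in the promoters of these genes, while Hspa5 is mainly driven by the unfolded protein response through the ER stress response element. Embryonic stem cells are known for high constitutive levels of several chaperones.

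Library totals ranged from 16894327 to 22550952 estimated counts, and the detection floor of 3 counts equals 0.133 to 0.178 CPM (counts scaled by the library total). Levels below are CPM after TMM scaling, as mean ± SD over 3 libraries, unless TPM (scaled abundance corrected for transcript length) is named. The stem cell genes Pou5f1 (767 to 1748 CPM), Sox2 (82.4 to 576 CPM) and Lin28a (169 to 942 CPM) were expressed in every library, as the cell line label says. The summed level of 8 fibroblast or feeder markers, 6 of which were tested, was 12.5 to 28.3 CPM in +LIF2i, 32.6 to 44.8 in -LIF2i and 22.5 to 31.8 in CK666 libraries, with Lum at 0 to 0.0519 CPM and Postn at 0 to 0.283 CPM. The summed level of 8 pluripotency genes was 4597 to 5708 CPM in +LIF2i, 2823 to 3143 in -LIF2i and 2513 to 3009 in CK666 libraries. Summed trophoblast markers (52.4 to 168 CPM) and neural markers (23.7 to 194 CPM) overlapped between all groups. Endoderm markers summed to 5.50 to 15.3 CPM in the controls and 12.1 to 16.5 with CK666, and mesoderm markers to at most 0.784 CPM in +LIF2i, 5.24 in -LIF2i and 2.84 in CK666 libraries. The part of these lists in the results was not tested. In bulk RNA, fewer cells with a transcript and less transcript per cell cannot be told apart. The 3 libraries numbered replicate 1 stood apart from the rest, with 15637 to 17551 genes detected against 18080 to 18636 in replicates 2 and 3. They also carried more Hspa8 (1.52 to 3.44 times the mean of replicates 2 and 3 in the same group) and Hsp90aa1 (1.84 to 2.23 times), and less Hspa1a (0.273 to 0.429 times). Calls for the 10 genes are therefore given with and without replicate 1.

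The promoter stretches below are shown because they hold the elements by which these genes are usually classified. RefSeq promoter windows (GRCm38.p6, 250 bases before to 50 after each start) were matched for 6 of the 10 genes, Hspa1a, Hspa1b, Hspa5, Hspb1, Hsph1 and Dnajb1. Hspa8, Hsp90aa1, Hsp90ab1 and Hsf1 were not matched. The patterns below were searched on both strands: the 2-unit heat shock elements TTCNNGAA and GAANNTTC, which each read the same on both strands, the 3-unit element TTCNNGAANNTTC, which contains both of them, and the ER stress response element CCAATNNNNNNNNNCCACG. Hspa1a and Hspa1b are shown over the 250 bases before their starts, at chr17:34972157-34972406 and chr17:34959239-34959488 on the minus strand. Hspb1 is shown at chr5:135887762-135887869 on the plus strand, Hsph1 at chr5:149636279-149636308 on the minus strand and Hspa5 at chr2:34772020-34772048 on the plus strand. Capitals mark the matches.
Hspa1a: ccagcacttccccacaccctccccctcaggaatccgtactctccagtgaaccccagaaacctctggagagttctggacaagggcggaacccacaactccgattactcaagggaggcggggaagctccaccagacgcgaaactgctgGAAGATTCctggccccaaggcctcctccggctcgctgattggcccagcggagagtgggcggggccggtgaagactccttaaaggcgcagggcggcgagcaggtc
Hspa1b: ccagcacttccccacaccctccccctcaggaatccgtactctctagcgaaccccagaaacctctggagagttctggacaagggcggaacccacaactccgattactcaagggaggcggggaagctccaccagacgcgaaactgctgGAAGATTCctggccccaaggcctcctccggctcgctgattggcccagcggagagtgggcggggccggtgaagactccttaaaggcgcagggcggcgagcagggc
Hspb1: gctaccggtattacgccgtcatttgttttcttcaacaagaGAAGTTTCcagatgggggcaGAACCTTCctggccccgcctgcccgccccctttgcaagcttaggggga
Hsph1: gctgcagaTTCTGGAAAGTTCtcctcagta
Hspa5: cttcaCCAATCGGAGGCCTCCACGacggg

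The Hspa1a and Hspa1b stretches differ at 3 of 250 positions (98.8% identical), and each holds 1 match, GAAGATTC, whose first base lies 104 bases before the start. Hspb1 holds GAAGTTTC and GAACCTTC, beginning 117 and 97 bases before its start. Hsph1 holds the 3-unit match TTCTGGAAAGTTC, whose first base is base 16 when the second of its RefSeq starts is counted as base 1. A further 2-unit match in Hsph1, TTCTCGAA, lies outside the stretch shown, 33 bases before the first RefSeq start and 54 before the second. Hspa5 holds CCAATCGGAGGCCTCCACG, 65 bases before its start. No pattern was found in the Dnajb1 window. Among 32851 RefSeq windows of the same 300-base length, 15.1% hold a 2-unit match of either kind, 0.603% hold the 3-unit element and 0.119% hold the ER element. A match is a description of the letters and no evidence of binding.

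The stretches before Hspa1a and Hspa1b are near copies, and so are their transcripts: 63.8% of the 31-base words of Hspa1a also occur in Hspa1b. Their separate values depend on how reads were divided between them, so the sum of both is given beside them. Hspa8 shares 38.6% of its words with the processed pseudogene Gm15459, and the estimated counts were divided almost evenly, with 48.3% to 51.2% of the pair's counts on Hspa8 in every library. Hsp90aa1 shares 46.7% of its words with Gm12346, which had 1.48 to 23.1 estimated counts per library, and Hspb1 shares 52.3% with Hsp25-ps1, which was at 0 in all 9 libraries. Hsp90ab1 shares 13.2% of its words with other genes, Dnajb1, Hsf1 and Hspa5 each under 0.5%, and Hsph1 shares 0. The exon of Hspa1a overlaps Gm20481 on the opposite strand over 19% of its bases; Gm20481 had at most 2.35 estimated counts.

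In self-renewing cells the length-corrected levels of the 10 genes fell into tiers. Hsp90aa1 (HSP90 alpha, the stress-inducible cytosolic form; chr12:110690605-110702728) stood at 6312 ± 5721 TPM and Hsp90ab1 (HSP90 beta, the constitutive form; chr17:45567775-45573271) at 4943 ± 2145 TPM, with overlapping libraries. In +LIF2i replicate 1 a short retained-intron model, Hsp90aa1-205, supplied 5755 of the 12909 TPM of Hsp90aa1. Hspa8 (the constitutive cytosolic HSC70; chr9:40800984-40810087) followed at 2470.1 ± 2780 TPM, with 5675 TPM in replicate 1 and 715 and 1020.1 TPM in the other libraries. Without replicate 1 the means were 3709.8 TPM for Hsp90ab1, 3013 TPM for Hsp90aa1 and 868 TPM for Hspa8, so the first place of Hsp90aa1 and the overlap of Hspa8 with Hsp90ab1 rested on that library. Then came Hspb1 (HSP27 in human, HSP25 in mouse; chr5:135887919-135889563) at 418 ± 84.9 TPM and Hspa5 (BiP; chr2:34771970-34777547) at 343 ± 127 TPM, which overlapped each other and lay below every Hspa8 value. Hsph1 (HSP105; chr5:149614287-149636376) at 55.9 ± 13.1 TPM, Dnajb1 (HSP40; chr8:83608193-83612653) at 35.9 ± 7.56 TPM and Hsf1 (chr15:76477422-76501913) at 28.2 ± 9.16 TPM formed a lower tier whose neighbours overlapped. The stress-inducible HSP70 genes Hspa1b (chr17:34956436-34959238) at 5.29 ± 0.646 TPM and Hspa1a (chr17:34969190-34972156) at 1.78 ± 1.04 TPM were lowest, and their libraries did not overlap each other or Hsf1. Coordinates are whole gene spans in GRCm38, and all 10 are annotated as protein-coding.

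In withdrawn controls Hsp90ab1 was highest at 4815 ± 1492 TPM, as it was in self-renewing replicates 2 and 3, and overlapped neither Hspa8 (2054 ± 992 TPM) nor Hsp90aa1 (1929.6 ± 829.9 TPM), and the latter pair overlapped. Summed with Gm15459, Hspa8 stood at 3600.1 ± 1593 TPM (5433, 2825 and 2543 TPM). That sum overlapped Hsp90ab1 (6524, 4152 and 3769 TPM), so the gap to Hsp90ab1 depends on how reads were divided with the pseudogene. With CK666 Hsp90ab1 was again first, at 4438 ± 1268 TPM, without overlap with Hsp90aa1 at 2112 ± 1053 TPM. The ratio of Hsp90aa1 to Hsp90ab1, both in TPM, was 1.74, 0.772 and 0.848 in the +LIF2i libraries of replicates 1, 2 and 3. It was 0.443, 0.344 and 0.391 in -LIF2i libraries and 0.553, 0.512 and 0.320 in CK666 libraries. Every self-renewing library therefore lay above all 6 withdrawn libraries in this ratio, while the withdrawn groups overlapped. Together the 10 genes took 1.02% to 2.56% of the gene counts of a library, with the highest share in +LIF2i replicate 1, and HSP90 alpha and beta accounted for 0.887% to 2.14%.

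**Figure D1:**
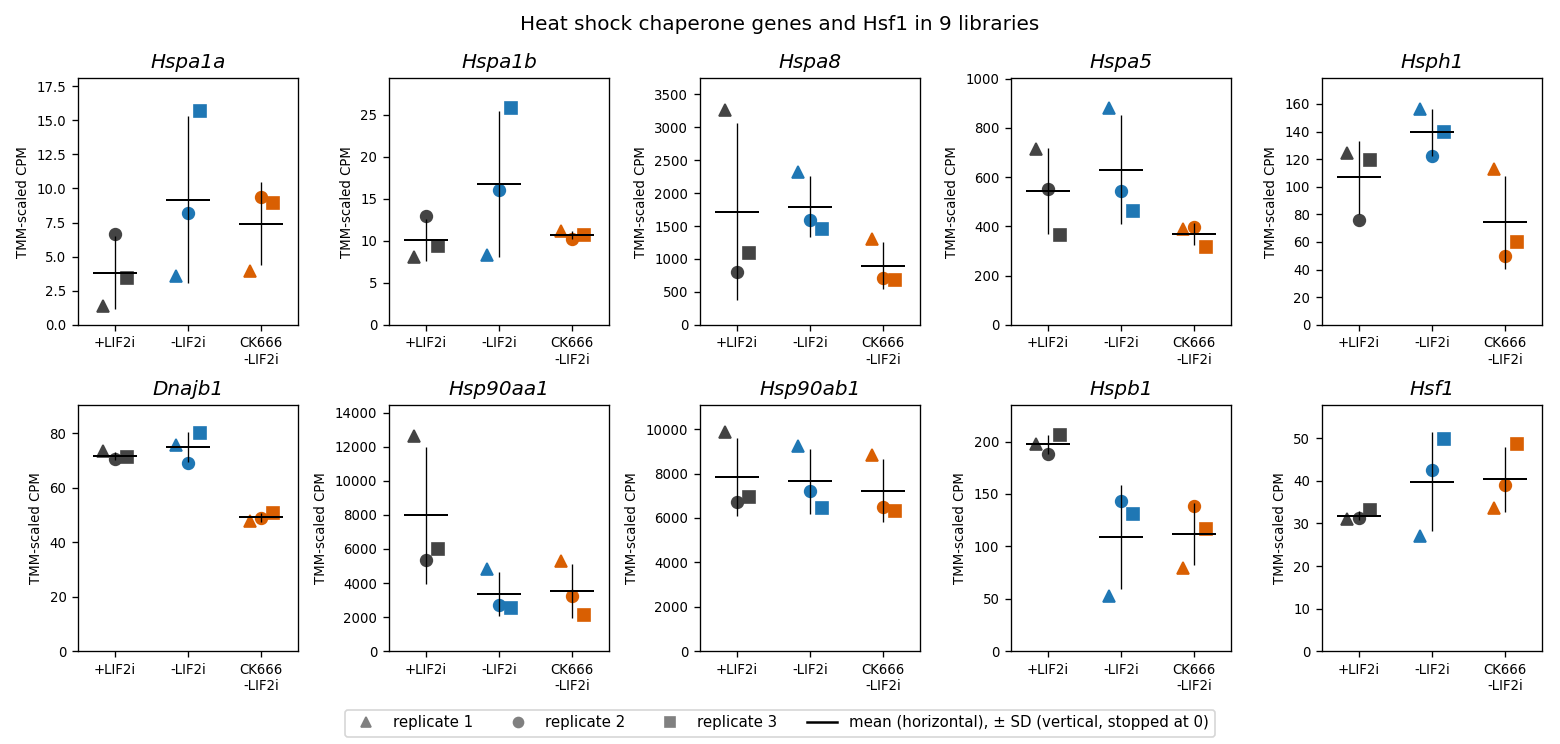
TMM-scaled CPM (vertical axis, linear, from 0, a separate scale for each gene) of the 10 genes in 9 libraries, by group on the horizontal axis. Triangles, circles and squares are replicates 1, 2 and 3, horizontal lines are means and vertical lines ± SD. Dnajb1 sits at 47.6 to 50.8 CPM in the CK666 libraries and at 69.1 to 80.1 CPM in the other 6, and the triangles of Hspa8 and Hsp90aa1 lie highest in their groups.

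Withdrawal of LIF2i for 72 h, the control comparison for leaving self-renewal, lowered Hsp90aa1 and Hspb1. It raised Hspa1a taken alone, although the sum of Hspa1a and its near copy Hspa1b did not pass. Thus 3 of 10 genes passed edgeR's quasi-likelihood test with the replicate number as block, at a Benjamini-Hochberg adjusted p under 0.05, against 40.7% of all 14648 genes (21.1% raised and 19.7% lowered). Their median log2 fold change was 0.25, and that of all genes tested was 0.01. With no block 0 of 10 passed in edgeR, where 3509 of 14648 genes did. In that fit 2 had an unadjusted p under 0.05, where 5237 of all genes did. DESeq2 and limma with the block each called 3, where they called 6312 and 4901 of all genes. Without replicate 1 the count was 7 of 10 against 44.8% of all genes.

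Hsp90aa1 had 12607, 5341 and 5981 CPM in +LIF2i libraries and 4823, 2702 and 2528 CPM in -LIF2i libraries of replicates 1, 2 and 3. All withdrawn libraries lay below all self-renewing ones, although replicate 1 after withdrawal came near replicate 2 before it. Fitted, the decrease had a log2 fold change of -1.21 (SE 0.17, adjusted p = 0.00056, lower in 3 of 3 pairs), a 2.31-fold lower level, from 7977 ± 4023 to 3351 ± 1278 CPM. Without replicate 1 it was -1.10 (adjusted p = 0.0012), and without the block the adjusted p was 0.078. Hsp90ab1, the constitutive partner, had 9884.5, 6729 and 6945 CPM before and 9258.5, 7209 and 6464 CPM after withdrawal. The groups overlapped throughout and the log2 fold change was -0.03 (SE 0.14, adjusted p = 0.87), with a sign that turned when replicate 1 was left out (0.02).

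Hspb1 had 197, 188 and 206 CPM in self-renewing cells, a narrow range, and 52.5, 143 and 131 CPM after withdrawal. The groups did not overlap, and the withdrawn library of replicate 1 was far below the others. Withdrawal gave a log2 fold change of -0.98 (SE 0.25, adjusted p = 0.012, lower in 3 of 3 pairs), or 1.97-fold lower. Without replicate 1 the change was -0.50 on the log2 scale (adjusted p = 0.0068), and without the block the adjusted p was 0.10. The Hspb1 decrease thus kept its direction and its call without replicate 1, at a size smaller by over 1.5 times.

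The inducible HSP70 genes were low in all libraries. Hspa1a had 1.38, 6.69 and 3.40 CPM in +LIF2i and 3.57, 8.20 and 15.7 CPM in -LIF2i libraries, which rest on 28.1 to 291 estimated counts. The groups overlapped, but each pair was higher after withdrawal. This gave a log2 fold change of 1.27 (SE 0.37, adjusted p = 0.021). Without replicate 1 it was 1.25 (adjusted p = 0.039), without replicate 3 it was 0.77 (adjusted p = 0.25), and the adjusted p was 0.21 without the block. Hspa1b had 8.06, 12.9 and 9.35 CPM before and 8.35, 16.1 and 25.7 CPM after withdrawal, with a log2 fold change of 0.65 (SE 0.32, adjusted p = 0.13) and 0.91 without replicate 1 (adjusted p = 0.022). Summed, the pair had 9.43, 19.6 and 12.8 CPM before and 11.9, 24.3 and 41.4 CPM after withdrawal. The sum did not pass the test (log2 fold change 0.81, SE 0.29, adjusted p = 0.053). It passed in 5 of 20 alternatives, among them DESeq2 (adjusted p = 0.021) and without replicate 1 (1.03, adjusted p = 0.033), and was 0.32 without replicate 3 (adjusted p = 0.45). The call for Hspa1a was also lost without +LIF2i replicate 3 alone (0.94, adjusted p = 0.12) or -LIF2i replicate 3 alone (0.85, adjusted p = 0.13).

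Hspa8 had 3257, 805 and 1092 CPM in self-renewing and 2320.3, 1591 and 1458 CPM in withdrawn cells. Replicate 1 was lower after withdrawal and replicates 2 and 3 were higher, so the groups overlapped. Its log2 fold change was 0.28 (SE 0.24, adjusted p = 0.39) with all libraries and 0.72 (adjusted p = 0.0025) without replicate 1. Hspa8 counts summed with Gm15459 gave 0.28 (adjusted p = 0.37) and, without replicate 1, 0.70 (adjusted p = 0.0029).

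Hsph1, the HSP110 exchange factor, had 125, 76.2 and 119.5 CPM before and 156, 122 and 139 CPM after withdrawal. Each pair was higher after withdrawal and the groups overlapped slightly, with a log2 fold change of 0.41 (SE 0.18, adjusted p = 0.091) and 0.47 without replicate 1 (adjusted p = 0.015). Dnajb1, its J-domain partner in the HSP70 cycle, was nearly level in these cells, with 73.4, 70.4 and 71.2 CPM before and 75.6, 69.1 and 80.1 CPM after withdrawal. Its log2 fold change was 0.06 (SE 0.11, adjusted p = 0.68) and 0.10 without replicate 1 (adjusted p = 0.55). Hspa5, the ER chaperone, had 713, 551 and 364 CPM before and 882, 545 and 463 CPM after withdrawal, and the wide ranges overlapped (log2 fold change 0.22, SE 0.16, adjusted p = 0.31, and 0.19 without replicate 1 with adjusted p = 0.22).

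Hsf1 itself had 31.2, 31.2 and 33.04 CPM in self-renewing cells and 27.1, 42.6 and 49.7 CPM after withdrawal. Replicate 1 was lower and the others higher after withdrawal. The log2 fold change was 0.28 (SE 0.17, adjusted p = 0.21), and without replicate 1 it was 0.54 (adjusted p = 0.0090). Without replicate 1, then, 5 genes passed as raised (Hspa1a, Hspa1b, Hspa8, Hsph1 and Hsf1), where 3491 of 14716 genes did. With all libraries 1 passed as raised, beside 21.1% of all genes. Leaving out replicate 2 gave 1 raised member (2015 of 14828 genes) and leaving out replicate 3 gave 0 (1671 of 14968 genes).

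**Figure D2:**
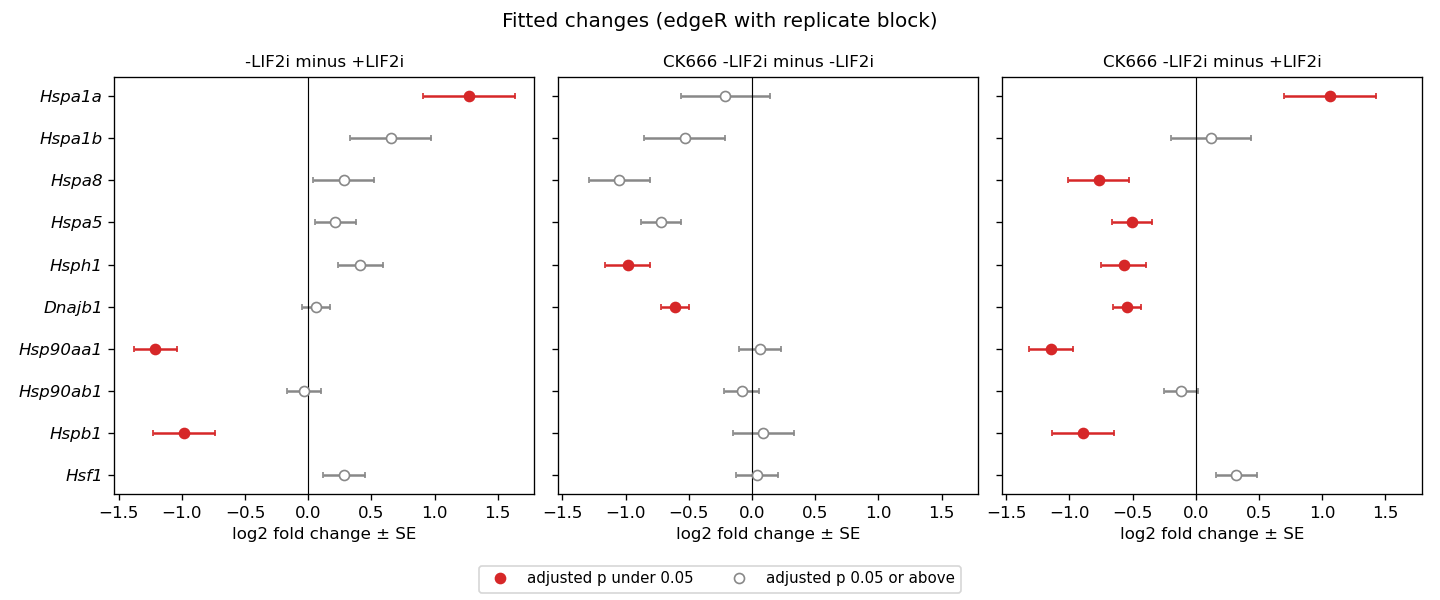
Fitted log2 fold changes (horizontal axis) with SE bars for the 10 genes in the 3 comparisons, from the edgeR fit with replicate block. Filled red points have an adjusted p under 0.05 (3 genes for withdrawal, 2 for CK666, 7 for CK666 against self-renewing cells). Hsph1 and Dnajb1 are the filled points in the middle panel, and Hsp90aa1 and Hspb1 lie near 0 there.

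CK666 during withdrawal, the comparison that addresses Arp2/3 activity, lowered Dnajb1 and Hsph1. Thus 2 of 10 genes passed the same edgeR test, both lowered, against 2.05% of all genes in either direction and 0.894% lowered (1.15% raised). The libraries of both groups did not overlap for 4 genes, Hspa8, Hspa5, Hsph1 and Dnajb1, where 16.5% of all genes tested did not overlap. All 4 were lower with CK666 in 3 of 3 pairs, but Hspa8 and Hspa5 did not pass the test. The median log2 fold change of the 10 genes was -0.37, and that of all genes tested was 0.02. With no block 0 of 10 passed in edgeR (3 had an unadjusted p under 0.05) and 0 of 14648 genes did (1251 had an unadjusted p under 0.05). Without replicate 1 the count was 5 of 10 against 12.3% of all genes, and without replicate 2 or without replicate 3 it was 0. DESeq2 with the block called 4 (1136 of 14648 genes) and limma on log2 TPM called 0 (42 of 14648 genes).

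Dnajb1 had 47.6, 48.9 and 50.8 CPM with CK666, against 75.6, 69.1 and 80.1 CPM in withdrawn controls. The 3 treated libraries lay close together and below every control, self-renewing libraries included. The log2 fold change was -0.61 (SE 0.11, adjusted p = 0.033), or 1.53-fold lower, and -0.60 without replicate 1 (adjusted p = 0.015). Its size stayed between -0.68 and -0.57 in all 22 alternatives, whereas it passed in 10 of them, and the adjusted p without the block was 0.30. The call was lost when +LIF2i replicate 3 or any single library of the compared groups was left out.

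Hsph1 had 113, 49.9 and 60.0 CPM with CK666, against 156, 122 and 139 CPM in withdrawn controls. The treated library of replicate 1 came nearest to the controls. The log2 fold change was -0.98 (SE 0.18, adjusted p = 0.033), or 1.98-fold lower, and it was larger without replicate 1 (-1.27, adjusted p = 0.00091). The adjusted p without the block was 0.42. The call was lost without replicate 2 or replicate 3 of either compared group, and 13 of 22 alternatives kept it.

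Hspa8 had 1305, 714 and 676 CPM with CK666, against 2320.3, 1591 and 1458 CPM in withdrawn controls. Every treated library lay below every control. The log2 fold change was -1.05 (SE 0.24), 2.07-fold lower, but the adjusted p of 0.058 missed the threshold, as did 15 of 21 alternatives. It was -1.15 (adjusted p = 0.0019) without replicate 1 and -1.03 (adjusted p = 0.057) for the sum with Gm15459.

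Hspa5 had 390.0, 397 and 317 CPM with CK666, against 882, 545 and 463 CPM in withdrawn controls. The treated libraries were both lower and closer together. For Hspa5 the log2 fold change was -0.72 (SE 0.16, adjusted p = 0.055), and without replicate 1, whose control library was the highest, it was -0.52 (adjusted p = 0.020). Of the 22 alternatives 4 passed.

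Hspa1b had 11.2, 10.2 and 10.7 CPM with CK666, against 8.35, 16.1 and 25.7 CPM in withdrawn controls. Only the replicate 1 pair was higher with CK666. For Hspa1b the log2 fold change was -0.53 (SE 0.32, adjusted p = 0.39), and without replicate 1 it was -1.01 (adjusted p = 0.042). Hspa1a had 3.93, 9.40 and 8.94 CPM with CK666 (log2 fold change -0.21, SE 0.35, adjusted p = 0.79, and -0.40 without replicate 1 with adjusted p = 0.55), and the sum of both genes gave -0.39 (SE 0.29, adjusted p = 0.51). For the sum the pair differences were 0.34, -0.31 and -1.08 on the log2 scale, so its direction differed between replicates.

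The 2 genes lowered by withdrawal gave no further difference with CK666 that passed the test. Hsp90aa1 had 5271, 3254 and 2149 CPM with CK666, a span that includes that of the withdrawn controls (log2 fold change 0.06, SE 0.17, adjusted p = 0.88). Hspb1 had 79.8, 138 and 116 CPM, within the range of 52.5 to 143 CPM of the withdrawn controls (0.09, SE 0.24, adjusted p = 0.88). The direction of each differed between pairs and between leave-outs, and without replicate 1 the values were 0.01 for Hsp90aa1 and -0.13 for Hspb1, neither past the threshold. Hsp90ab1 had 8855, 6484 and 6328 CPM, overlapping the controls (-0.08, SE 0.14, adjusted p = 0.79, and -0.11 without replicate 1). Hsf1 had 33.6, 39.1 and 48.6 CPM, also overlapping (0.04, SE 0.16, adjusted p = 0.92), with a sign that turned under 3 other ways of counting, without replicate 1 (-0.10) and without -LIF2i replicate 1 alone (-0.15).

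**Figure D3:**
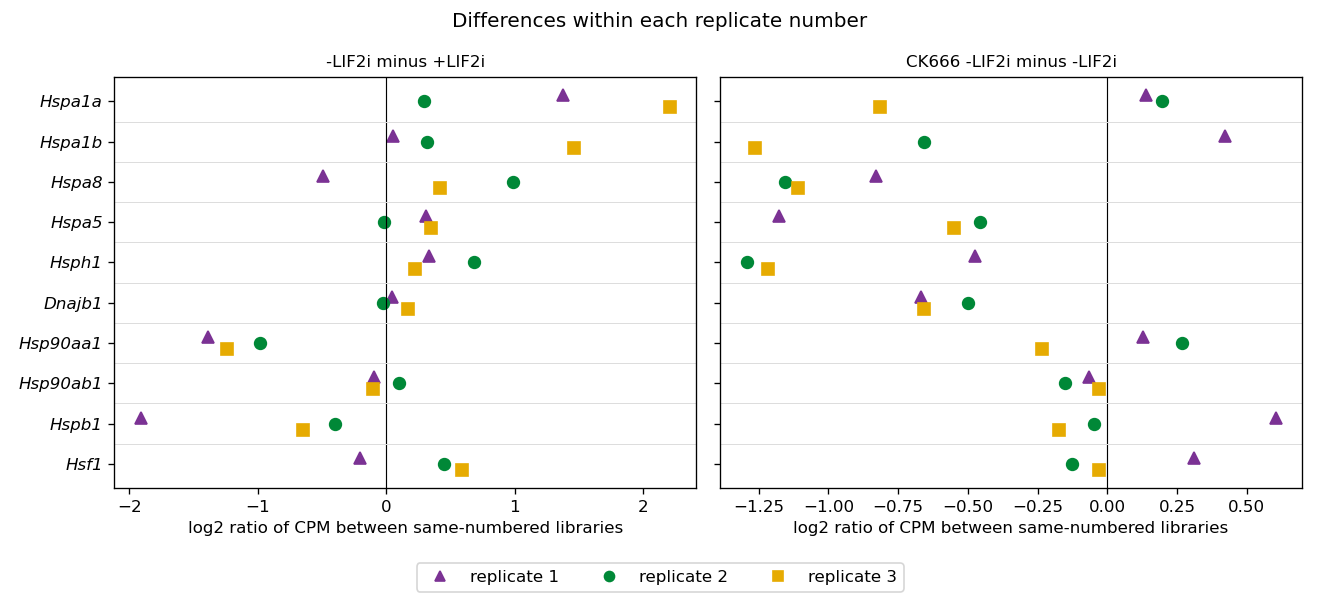
Log2 ratio of CPM between libraries of the same replicate number (horizontal axis), for -LIF2i against +LIF2i on the left and CK666 -LIF2i against -LIF2i on the right, with a separate horizontal scale for each panel. On the right all 3 replicates of Hspa8, Hspa5, Hsph1 and Dnajb1 lie below 0, with Dnajb1 between -0.67 and -0.50. On the left Hsp90aa1 and Hspb1 lie below 0 in all 3, and replicate 1 of Hspb1 is at -1.91.

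Cells withdrawn with CK666 were also compared with self-renewing cells, a comparison that shares both groups with those above and so adds no independent samples. Here 7 of 10 genes passed, 6 lowered and 1 raised, against 36.9% of all genes (17.1% lowered and 19.8% raised). Without replicate 1 the count was again 7, against 41.6% of all genes, with Hsf1 in place of Hspa1a. With no block only Dnajb1 passed (adjusted p = 0.020), where 2966 of 14648 genes did. The libraries of both groups did not overlap for Hsp90aa1, Hspb1, Dnajb1 and Hsf1, as for 37.3% of all genes.

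Dnajb1 fell from 71.6 ± 1.55 to 49.1 ± 1.63 CPM (log2 fold change -0.55, SE 0.11, adjusted p = 0.0046), and its call was kept in 21 of 22 alternatives. Hsp90aa1 had a log2 fold change of -1.15 (SE 0.17, adjusted p = 0.00087) and Hspb1 one of -0.89 (SE 0.24, adjusted p = 0.019). The values for withdrawal in control cells were -1.21 and -0.98. Hspa8 (-0.77, adjusted p = 0.033), Hsph1 (-0.57, adjusted p = 0.032) and Hspa5 (-0.51, adjusted p = 0.033) passed as lowered although their libraries overlapped those of self-renewing cells, and each kept the call in 12 of its alternatives. Without replicate 1 all 6 lowered genes still passed, at -0.50 for Dnajb1, -1.08 for Hsp90aa1, -0.63 for Hspb1, -0.43 for Hspa8, -0.80 for Hsph1 and -0.33 for Hspa5, so the Hspa8 and Hspa5 values were smaller by over 1.5 times.

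Hspa1a was raised (log2 fold change 1.06, SE 0.36, adjusted p = 0.045), but the call was not kept without replicate 1 (0.85, adjusted p = 0.13) and held in 9 of 21 alternatives, and the sum of Hspa1a and Hspa1b gave 0.42 (adjusted p = 0.29). Hspa1b alone was at 0.12 (adjusted p = 0.80), and at -0.10 without replicate 1. Hsf1 did not pass (0.32, SE 0.16, adjusted p = 0.16) although every CK666 library exceeded every self-renewing one, and without replicate 1 it passed (0.45, adjusted p = 0.024). Hsp90ab1 was at -0.12 (adjusted p = 0.54), and at -0.09 without replicate 1.

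Beyond the 10 genes, 9 lists of other chaperones, co-chaperones and stress response genes held 93 genes, of which 88 were tested. After withdrawal 30 of 88 passed (34.1%, background 40.7%), 10 raised and 20 lowered, and their median log2 fold change was -0.07. Of 20 ER chaperones and unfolded protein response genes 1 was raised and 9 were lowered, with a list median of -0.33. Of all genes 21.1% were raised and 19.7% lowered. Without replicate 1 the counts were 0 and 10, and over all lists 12 and 23, where 3491 of 14716 genes were raised and 3097 lowered. Without the block they were 0 and 3, and over all lists 5 and 10, where 1919 of 14648 genes were raised and 1590 lowered. Xbp1, the transcription factor of one branch of that response, had a log2 fold change of -0.83 (SE 0.13, adjusted p = 0.00093), and Sdf2l1, a component of the ER chaperone complex of Hspa5, had -0.87 (adjusted p = 0.0099). Hspa5, tested above, did not pass.

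Among J-domain proteins 4 of 15 were raised and 4 lowered by withdrawal, where 21.1% of all genes were raised and 19.7% lowered. Dnaja1, an HSP70 partner of the cytosol, rose from 165 ± 46.1 to 281 ± 34.3 CPM (0.79, adjusted p = 0.0036), Dnaja4 rose by 1.48 (adjusted p = 0.0092) and Dnajc7, which also binds HSP90, had -0.66 (adjusted p = 0.025). Of 10 HSP70 and HSP110 genes, Hspa4l, an HSP110 relative of Hsph1, rose by 1.92 on the log2 scale (SE 0.25, adjusted p = 0.00035), from 3.998 ± 2.24 to 14.0 ± 3.67 CPM, and Hspa9, the mitochondrial HSP70, had -0.43 (adjusted p = 0.045). Of 4 small heat shock genes tested out of 8 in the list, Hspb8 (-2.47, SE 0.38, adjusted p = 0.0012) and Hspb6 (-1.04, adjusted p = 0.0037) were lowered, as Hspb1 was.

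In the list of HSP90 family members and co-chaperones 2 of 16 genes were raised and 4 lowered after withdrawal, beside the same 21.1% and 19.7% of all genes. Ahsa2, a relative of the HSP90 ATPase activator, was raised (0.85, adjusted p = 0.015), and the HSP90 cofactors Cdc37l1 (-0.70, adjusted p = 0.0017) and Fkbp5 (-0.59, adjusted p = 0.011) were lowered. Of 11 nucleotide exchange and release factors only Bag2, a cofactor of HSP70, passed (1.24, adjusted p = 0.011), and of 10 chaperonin genes only Cct3, a subunit of the cytosolic ring, did (0.43, adjusted p = 0.033). None of 4 heat shock transcription factor genes passed in edgeR; 0 had an unadjusted p under 0.05, DESeq2 called 1 and limma 0. Of 17 textbook Hsf1 targets outside the 10 genes 2 were raised (Hspa4l and Dnaja1) and 2 lowered, Hspb8 and P4ha1 (-1.45, adjusted p = 0.0047), an enzyme of collagen synthesis, beside those same shares of all genes. Without replicate 1 every network gene named here for withdrawal still passed. Without the block Hspa9 (adjusted p = 0.35), Cct3 (adjusted p = 0.42) and Ahsa2 (adjusted p = 0.066) did not, while the others did, and Hspa9 held in 10 of 22 alternatives.

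With CK666, 2 of the 88 network genes passed (2.27%, background 2.05%). Dnaja1 had 165, 137 and 179 CPM with CK666 against 242, 300.5 and 301 CPM in withdrawn controls, with no overlap, and a log2 fold change of -0.81 (SE 0.16, adjusted p = 0.040). Without replicate 1 it was -0.97 (adjusted p = 0.0019). It was the only one of 15 J-domain genes in the list to pass (list median -0.02), and it passed in 11 of 22 alternatives. Hspb6, a small heat shock protein, went the other way, from 5.28 ± 1.28 to 12.2 ± 2.29 CPM (1.21, SE 0.21, adjusted p = 0.030, and 1.26 without replicate 1). Another 6 lists had 0 calls in edgeR: 16 HSP90 family and co-chaperone genes (7 with an unadjusted p under 0.05, 3 called by DESeq2), 10 HSP70 and HSP110 genes (2 and 1), 11 exchange factors (3 and 1), 10 chaperonins (1 and 1), 20 ER genes (3 and 2) and 4 heat shock factor genes (2 and 1), while the Hsf1 target list had 1, which is Dnaja1. Limma called 0 in each of these lists but the heat shock factor genes, where it called 1. Of all 14648 genes 2890 had an unadjusted p under 0.05 in edgeR, DESeq2 called 1136 and limma 42.

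Replicate 1 weighed on this comparison beyond the 10 genes too. Without it 22 of 88 network genes passed, 7 raised and 15 lowered, against 12.3% of all genes (900 raised and 911 lowered of 14716). Of 16 genes of the HSP90 family and its co-chaperones 1 was then raised and 8 were lowered, among them Chordc1, an HSP90-binding Hsf1 target (-0.64, adjusted p = 0.018). Of 17 textbook Hsf1 targets 0 were then raised and 6 lowered. No network gene passed without the block.

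Against self-renewing cells, CK666-treated withdrawn cells had 31 of 88 network genes past the threshold (35.2%, background 36.9%), 6 raised and 25 lowered. Without the block the counts were 5 and 9, where 1779 of 14648 genes were raised and 1187 lowered. With the block 19.8% of all genes were raised and 17.1% lowered. The ER list had 2 raised and 12 lowered of 20 (1 and 2 without the block), including Xbp1 (-1.05, SE 0.13, adjusted p = 0.00031). One of the raised pair was Ddit3 (CHOP, a stress-induced transcription factor), with 39.8, 130.0 and 74.1 CPM in CK666 libraries against 12.9, 32.6 and 32.0 CPM in self-renewing ones (1.64, SE 0.34, adjusted p = 0.0064). Against withdrawn controls Ddit3 had a log2 fold change of 1.70 with an adjusted p of 0.0501, and without replicate 1 it passed (2.11, adjusted p = 0.036). Hsf5, a heat shock factor family member best known from the testis, had 7.58, 11.9 and 10.7 CPM with CK666 against 0.0491, 1.57 and 1.40 CPM in self-renewing cells (3.52, SE 0.61, adjusted p = 0.0019), where the first value lies below the detection floor. Without replicate 1 this log2 fold change was 2.93 (adjusted p = 8.8e-05). Against withdrawn controls the log2 fold change of Hsf5 was 2.21 (adjusted p = 0.072), and without replicate 1 it was 2.29 (adjusted p = 0.0024). None of 10 chaperonins passed in edgeR; 1 had an unadjusted p under 0.05, DESeq2 called 1 and limma 0.

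**Figure D4:**
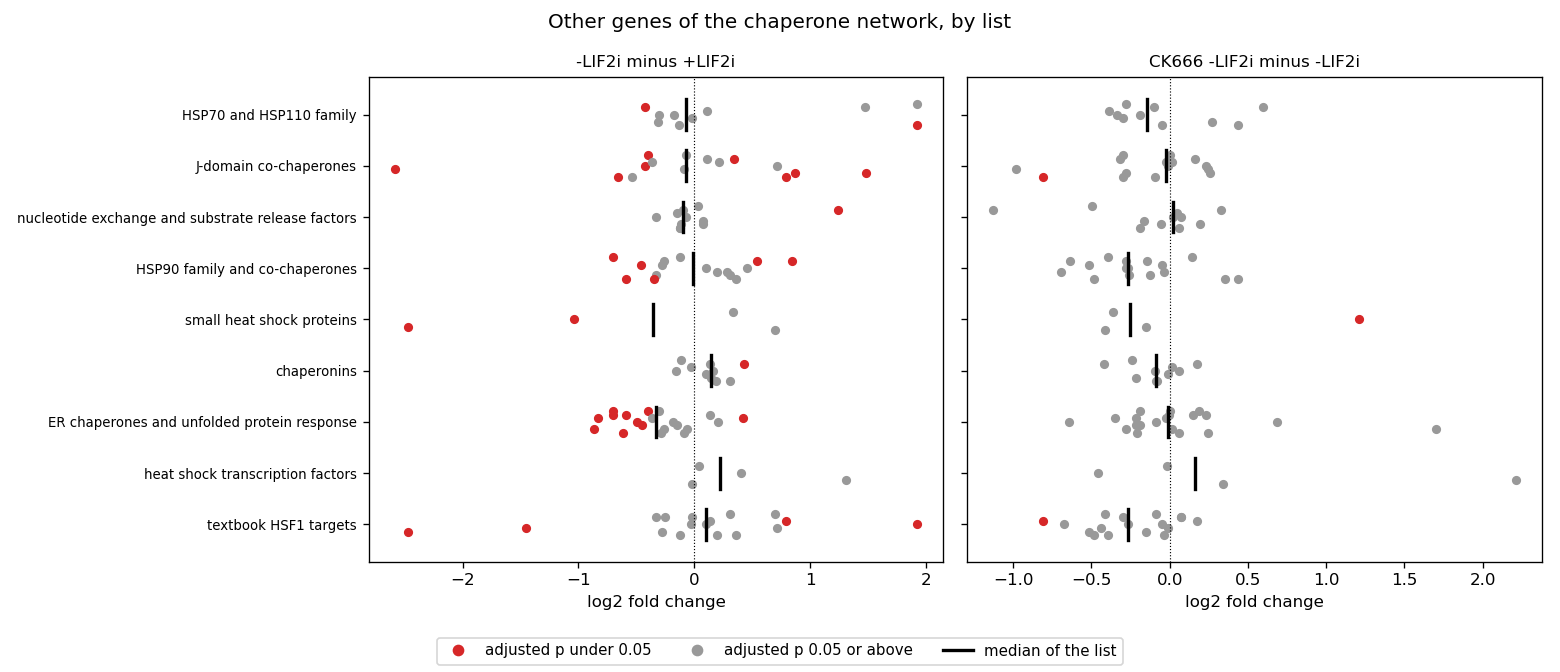
Log2 fold change (horizontal axis, a separate scale for each panel) of the other genes of the chaperone network, 1 row of points for each of 9 lists, for withdrawal on the left and CK666 during withdrawal on the right. Red points have an adjusted p under 0.05, black bars are list medians, and genes in 2 lists are drawn in both. Left, 9 of 20 ER genes are red below 0. Right, the red points are Hspb6 and Dnaja1, which is drawn in 2 lists.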

How the data were processed

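Poly-A RNA from 9 cultures was sequenced with the NEBNext Ultra kit, which does not mark strand, per the labels' protocols. FastQC, cutadapt 1.8.1, kallisto and sleuth, and the builds mm10 and GRCh38, are named without roles, per the submitters' processing notes; kallisto's version and transcript release are not given in the sources used here. For each library the authors deposited estimated counts (not normalised, reads shared between transcripts divided by the quantifier), TPM and an effective length for 119414 transcripts. Here 116640 of them (97.7%) were given a gene through their Ensembl identifier in GENCODE M21, the rest holding 0.895% to 1.08% of the counts, and estimated counts and TPM were summed per gene, counts being rounded. The test was edgeR 4.0.16 (R 4.3.3, robust quasi-likelihood, TMM, edgeR's expression filter, 4 residual degrees of freedom), with all 9 libraries in 1 fit and Benjamini-Hochberg adjustment over 14648 genes. SE is the absolute log2 fold change divided by the square root of F.

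The replicate number was a block because the series design calls the biological replicates paired; same-numbered libraries deviated together (correlation 0.30 to 0.65). P-values measure the spread between these cultures. Within a group, libraries differed beyond counting noise (chi-square per gene 17.2 to 218). The floor covers counting error only, because PCR reads lack molecular identifiers. The alternatives were DESeq2 1.42.0, its size factors in edgeR, no filter, a filter of 1 CPM in all libraries of a group, effective-length offsets, limma 3.58.1 on log2(TPM + 1), protein-coding transcripts, no block, leaving out each library or replicate number, and Hspa1a and Hspa1b summed. Hspa8 with Gm15459 was added after seeing the data. On counts simulated for the CK666 comparison (200 changed genes) the test with the block recovered 139, namely 57 of the genes changed by 1 on the log2 scale and 82 of as many changed by 2, with 16 false calls. Without the block 55 were recovered with 0 false calls, and DESeq2 recovered 152 with 35. The counts were drawn from the fit with the block, its replicate terms and spread included. A lower recovery without the block was therefore built in and does not speak for the block. The members and all lists were chosen with earlier results of these data known. The text names all members and, per network list and comparison, examples from the 3 called genes in each direction with the largest log2 fold change; Chordc1 without replicate 1 was chosen after its values were seen.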

Additional observations from a re-analysis of the deposited data

How the results depend on the processing

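Over 80 gene-level results and 22 alternatives, 1390 of 1739 values kept direction and side of the threshold, 289 lost the call, 35 gained one and 25 changed sign. With no replicate block 3509, 0 and 2966 of all genes passed for withdrawal, CK666 and CK666 against self-renewing cells (5967, 300 and 5408 with it), and 0, 0 and 1 of the 10 chaperone genes. For CK666 the count of all genes was 1136 by DESeq2, 565 without filter, 147 with effective-length offsets and 42 by limma, and that of the 10 genes was 4, 4, 0 and 0. Protein-coding transcripts gave 3 members there, Dnajb1, Hspa8 and Hsph1, and 258 of 13883 genes. Against self-renewing cells the effective-length fit called 4 members and limma 2, where 4408 and 4259 of 14648 genes passed. Leaving out 1 library or replicate number gave 3099 to 6588 genes and 2 to 7 members for withdrawal, 0 to 1811 genes and 0 to 5 members for CK666, and 2413 to 6129 genes and 1 to 7 members against self-renewing cells. For CK666, leaving out replicate number 2 in all groups gave 8 genes and number 3 gave 0, and leaving out replicate 2 or 3 of only 1 compared group gave 2 to 30, with 0 members in each of these fits. DESeq2 size factors and the stricter filter left the members' counts as they were.

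Sign changes were all in values that did not pass. For withdrawal, Hsp90ab1 was 0.0019 by limma, and leave-outs ranged from -0.0967 to 0.0240 for Hsp90ab1, -0.0416 to 0.7193 for Hspa8 and -0.0287 to 0.6950 for Hspa8 with Gm15459. For CK666, Hsf1 was -0.0216 with effective lengths, -0.0283 by limma and -0.0346 for protein-coding transcripts, and leave-outs ranged from -0.15 to 0.14 for Hsf1, -0.53 to 0.24 for Hspa1a, -0.7552 to 0.0714 for Hspa1a with Hspa1b, -0.11 to 0.21 for Hsp90aa1 and -0.24 to 0.28 for Hspb1. Hspa1b against self-renewing cells ranged from -0.24 to 0.34. With 4 residual degrees of freedom and 3 pairs, the CK666 calls depend on single libraries. Hspa1a rests on 28.1 to 291 counts per library.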

Other observations

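Hsp90aa1 and Hspa8, which stood higher in replicate 1 in each group, also differed there in which transcript models took the reads. Hsp90aa1-205, a retained-intron model of 487 bases, held 15855 estimated counts in +LIF2i replicate 1, against 1723 and 1971 in +LIF2i replicates 2 and 3. It took 44.6% of the gene's TPM in that library and 7.93% to 20.5% in the other 8. Hspa8-209, a processed transcript of 727 bases, held 62.4% of the Hspa8 TPM in +LIF2i replicate 1, 46.6% in -LIF2i replicate 1 and 52.1% in CK666 replicate 1, and 31.3% to 35.1% in the 6 libraries of replicates 2 and 3. So the short Hspa8 model took a larger share in every replicate 1 library, whatever the group. Dnajb1 showed nothing of the kind, with 98.3% to 100.0% of its TPM on Dnajb1-201 in all 9 libraries.

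The coding models of Hsp90aa1 also shifted within replicate 1. Hsp90aa1-202 held 54.3% and 49.0% of the gene's TPM in replicate 1 of -LIF2i and CK666, and 35.3% to 40.5% in replicates 2 and 3 of these groups, while Hsp90aa1-201 held 37.7% and 34.7% against 40.2% to 47.0%. In +LIF2i replicate 1, where Hsp90aa1-205 was high, Hsp90aa1-202 held 21.2%, against 38.1% and 36.8% in replicates 2 and 3. These are values of single libraries with no test. Of the 10 genes, Dnajb1 had the CPM ratio of replicate 1 to the mean of replicates 2 and 3 that stayed closest to 1, at 0.955 to 1.04 over the 3 groups.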
